A study of Mus musculus with 2 samples.

Results

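The genes described here encode the coagulation and complement proteins that the liver secretes into plasma, with their inhibitors. They are 41 genes of the 15419 that were measured on at least 1 array, chosen by the array's gene name: 17 for coagulation, 7 for anticoagulants and 17 for complement. All 41 had a probe, and 40 of them were well above background on both arrays. The exception was Tfpi. Each gene takes the value of its brightest probe. The samples were mouse primary hepatocytes (liver parenchymal cells put into culture) of 2 groups. Cells of one group received 50 pmol of G0s2 siRNA, and those of the other 50 pmol of control siRNA. In both groups a lipid reagent carried the siRNA into cells kept in medium with 10% serum, and RNA was collected after 24 hours. With 1 array for each group, nothing below is checked against replicates and no p-value is given. The values compare 2 arrays, not 2 conditions. G0s2 encodes an inhibitor of the triglyceride lipase of lipid droplets. Strain, sex and age of the animals are not given in the sources used here.

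Blood coagulation is a chain of proteases, each of which cuts and activates the next, ending in thrombin, which turns fibrinogen into fibrin. Anticoagulant proteins stop these proteases at several steps, and the plasmin system dissolves the clot. Complement is a related chain that starts from antibodies, from sugars on microbes or by itself, meets at C3, and ends in a pore made of the terminal components. Hepatocytes make most of the plasma pool of these proteins, and several factors need a vitamin K-dependent modification in the hepatocyte before they work.

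Values are signals relative to the array's 75th percentile, so 1 is the signal at that percentile. That signal was 728 scanner units on the G0s2 siRNA array and 418 on the control siRNA array, and 58.2% and 54.1% of probes were well above background. Differences are log2 of the G0s2 siRNA value over the control siRNA value, with the scanner's own error, which leaves out variation between cultures. Probes bind with unequal strength, so levels of different genes are not compared. G0s2 itself had 0.141 on the G0s2 siRNA array and 0.916 on the control siRNA array, 6.50-fold lower. All 10 hepatocyte markers were well above background on both arrays, with differences from -0.16 to 2.96. Cps1 and Hnf4a, at 2.96 and 1.04, were at least 2-fold higher.

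The 7 genes past 2-fold are shown by their probes, and Proz and Fga by 2 probes each. The sequences stand as the arrays carry them, 5′ to 3′, with mm9 coordinates. The F7 probes are added because they overlap, and capitals mark the bases they share. All other letters are in lower case.
Proz, chr8:13075883-13075942, plus strand: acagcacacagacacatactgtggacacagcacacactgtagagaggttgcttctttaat
Proz, chr8:13073878-13073937, plus strand: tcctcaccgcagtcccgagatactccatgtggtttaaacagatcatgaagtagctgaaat
Fga, chr3:82835678-82835737, plus strand: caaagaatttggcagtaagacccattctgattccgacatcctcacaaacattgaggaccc
Fga, chr3:82837260-82837319, plus strand: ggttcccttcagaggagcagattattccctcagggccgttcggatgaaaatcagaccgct
C8b, chr4:104477094-104477153, plus strand: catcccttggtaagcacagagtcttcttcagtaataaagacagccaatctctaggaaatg
Pros1, chr16:62928674-62928733, plus strand: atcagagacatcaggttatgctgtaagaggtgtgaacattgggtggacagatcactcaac
F9, chrX:57282894-57282953, plus strand: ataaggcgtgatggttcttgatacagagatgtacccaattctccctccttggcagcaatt
C9, chr15:6433127-6433186, plus strand: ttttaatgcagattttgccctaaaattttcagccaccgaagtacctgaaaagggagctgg
F11, chr8:46326753-46326812, minus strand: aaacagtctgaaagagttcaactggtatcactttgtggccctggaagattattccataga
F7, chr8:13035257-13035316, plus strand: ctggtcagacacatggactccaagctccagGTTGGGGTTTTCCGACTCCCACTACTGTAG
F7, chr8:13035287-13035346, plus strand: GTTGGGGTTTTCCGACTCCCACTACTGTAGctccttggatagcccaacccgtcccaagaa

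Complement and coagulation genes differed in both directions between the arrays. With G0s2 siRNA, 4 of 41 were at least 2-fold higher, namely Proz, C8b, Fga and Pros1, against 4.81% of all genes. At least 2-fold lower were 3, namely F9, C9 and F11, against 5.46% of all genes. The median difference over the 40 genes was 0.17, with 24 above 0. With the other F10 probe, described below, this median was 0.20. Over all genes on both arrays the median was -0.06, with 44.9% above 0. Over the 10 hepatocyte markers it was 0.36, with 9 above 0, so a median above that of all genes is not particular to these genes. By a looser rule of 1.5-fold, 11 were higher and 5 lower, against 12.4% and 14.6% of all genes. By a rule of 3-fold, 2 were higher and 0 lower, against 1.14% and 1.53%. More than 2 scanner errors higher were 16 genes and lower were 7, against 17% and 21% of all genes. Whether these shares differ from those of all genes was not tested. Centring on the spike-in RNAs in place of the 75th percentile adds 1.51 to every difference and turns F9, C9 and F11 positive, so each direction here is relative to the other genes of the array.

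**Figure D1:**
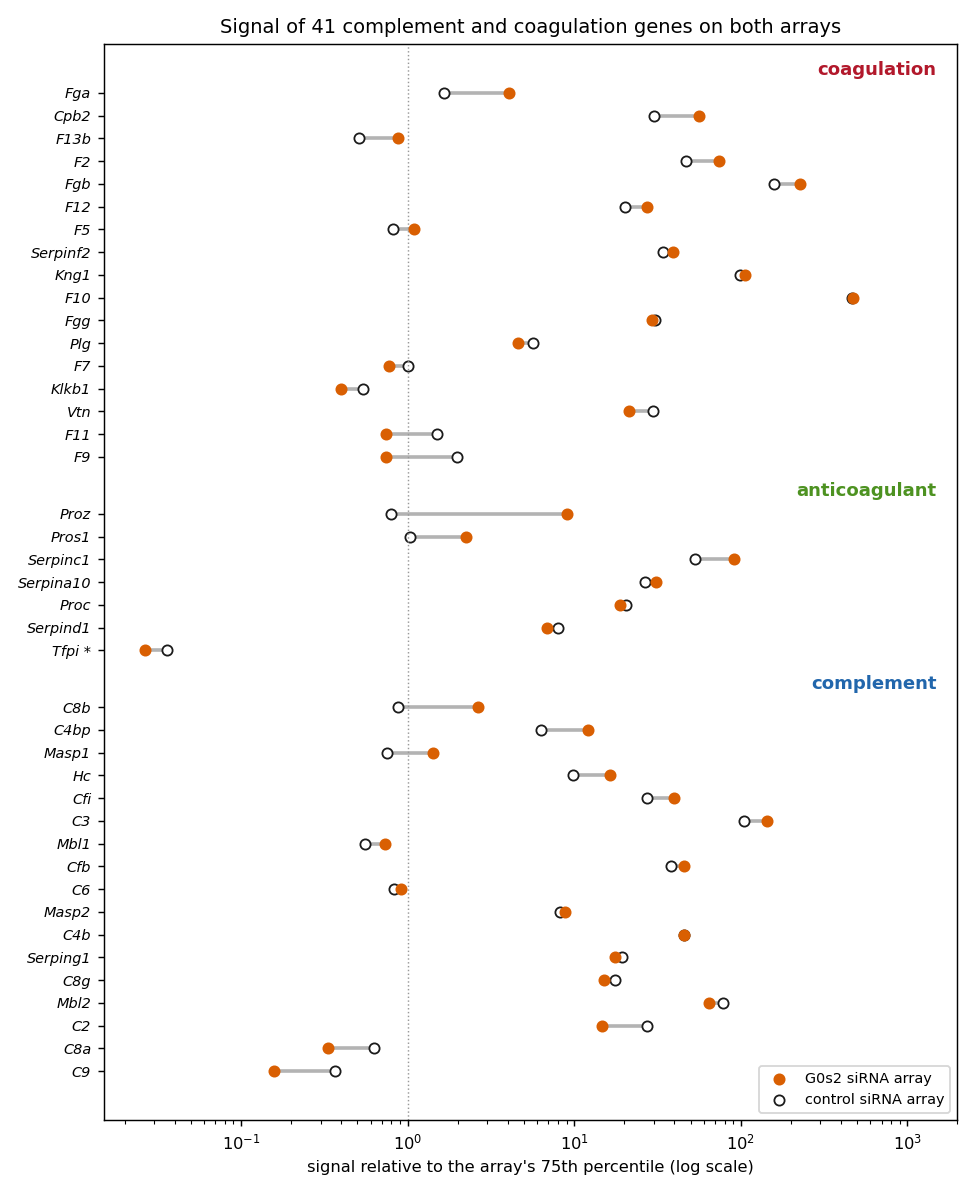
Signal of each of the 41 genes on the G0s2 siRNA array (filled) and the control siRNA array (open), relative to the array's 75th percentile on a log scale, ordered within each class by the difference. Proz has the widest gap, with 9.03 on the G0s2 siRNA array and 0.793 on the control siRNA array. The star marks Tfpi, which was not well above background on the control siRNA array.

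**Figure D2:**
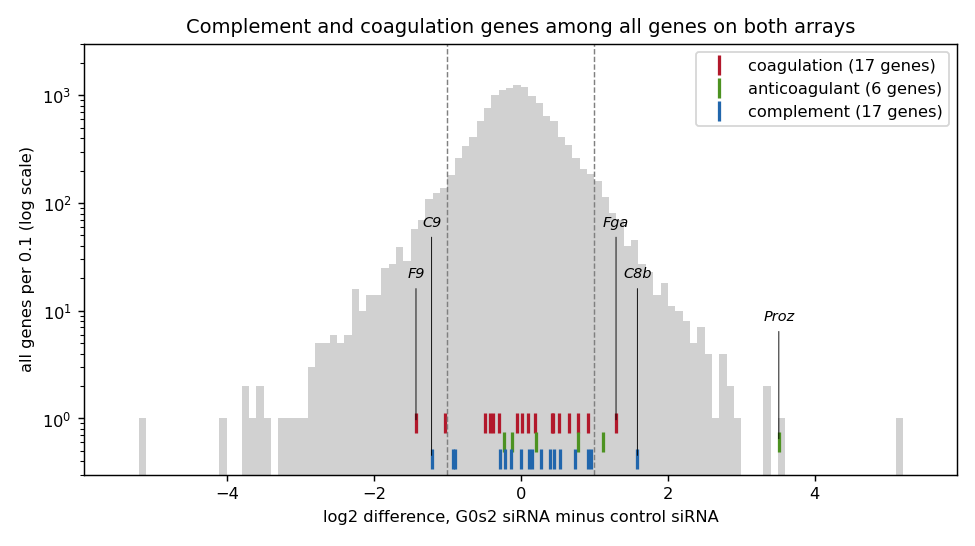
Log2 differences (G0s2 siRNA minus control siRNA) of 14120 genes on both arrays, as a histogram with a log count axis, with ticks for coagulation, anticoagulant and complement genes. Dashed lines mark 2-fold, and Proz, at 3.51, lies far to the right of the other ticks.

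Among the coagulation genes the clotting factors went both ways. The median difference of the 17 coagulation genes was 0.10, or 0.19 with the other F10 probe. Past 2-fold were 1 upward and 2 downward, 5.88% and 11.8%, against 4.81% and 5.46% of all genes. F9, which encodes the protease missing in haemophilia B, had 0.741 on the G0s2 siRNA array and 1.99 on the control siRNA array. It was 2.69-fold lower, a difference of -1.43 ± 0.20, and -1.21 under normexp background correction. F2, which encodes prothrombin, had 73.6 on the G0s2 siRNA array and 46.8 on the control siRNA array, a difference of 0.65 ± 0.20. The brightest probe for F10, whose product turns prothrombin into thrombin, carries a repeat: it shares 16 or more bases in a row with 112 of 32851 promoter windows of RefSeq (GRCm38.p6). Its signal, 471 on the G0s2 siRNA array and 466 on the control siRNA array, a difference of 0.01, is therefore not read as F10. The other F10 probe shares none and had 15.99 on the G0s2 siRNA array and 13.8 on the control siRNA array, a difference of 0.22 ± 0.20. By the same count the brightest probes of Cpb2 and F5 share 16 bases with 18 and 14 windows, and no other probe of the 41 genes with more than 1.

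F7 encodes the protease that starts clotting with tissue factor, and had 0.777 on the G0s2 siRNA array and 1.01 on the control siRNA array. Its difference was -0.38 ± 0.20, and the probe that shares 30 of 60 bases with it gave -0.20. F5 encodes the cofactor of F10 and had 1.09 on the G0s2 siRNA array and 0.816 on the control siRNA array, a difference of 0.42 ± 0.20. This brightest F5 probe is the one that shares 16 bases with 14 promoter windows. A second F5 probe, at chr1:166139728-166141916, shares none and gave 1.15 ± 0.21. Whether F5 is past 2-fold thus depends on the probe, and the probe without shared bases is past it. F13b, which encodes the carrier subunit of the fibrin-crosslinking enzyme, was spotted 10 times per array. The spots averaged 0.874 ± 0.042 on the G0s2 siRNA array and 0.512 ± 0.015 on the control siRNA array (SD over 10 spots, which are not replicate cultures). Its difference was 0.77, below 2-fold.

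The fibrinogen genes lie side by side and differed unequally. Fga, the alpha chain, had 4.04 on the G0s2 siRNA array and 1.64 on the control siRNA array, 2.45-fold higher, a difference of 1.30 ± 0.20. A second Fga probe, at a later position of the transcript, gave 1.31. Fgb, the beta chain, had 226 on the G0s2 siRNA array and 158 on the control siRNA array, a difference of 0.52 ± 0.20. Fgg, the gamma chain, had 29.5 and 30.5 on the same arrays, a difference of -0.05. Only Fga passed 2-fold of these 3, although the probes lie 16.9 kb (Fgg to Fga) and 10.66 kb (Fga to Fgb) apart on chromosome 3.

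The contact system starts clotting on charged surfaces and releases bradykinin. F11 had 0.737 on the G0s2 siRNA array and 1.501 on the control siRNA array, 2.04-fold lower, a difference of -1.03 ± 0.20, but -0.77 under normexp. Its neighbour Klkb1, which encodes plasma prekallikrein, lies 28.3 kb away by probe and had 0.400 on the G0s2 siRNA array and 0.537 on the control siRNA array, a difference of -0.42. F12, the first protease of the system, had 27.3 on the G0s2 siRNA array and 20.1 on the control siRNA array, a difference of 0.44. Kng1, the bradykinin precursor, differed by 0.10 and by 0.07 on its other probe. Mouse Kng1 has a close copy in Kng2, at 0.13, so their separate values are uncertain. The 2 neighbouring proteases were both lower, and the other contact genes were not.

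Of the genes for dissolving the clot, Cpb2 was highest in difference and below 2-fold. It encodes a carboxypeptidase that slows fibrinolysis, and had 56.3 on the G0s2 siRNA array and 29.98 on the control siRNA array, a difference of 0.91 ± 0.20. Its only probe shares 16 bases with 18 promoter windows, so the value of Cpb2 is uncertain. Plg, the plasmin precursor, had 4.61 and 5.68 on the same arrays, a difference of -0.30. Serpinf2, which encodes the plasmin inhibitor, differed by 0.19. Vtn encodes vitronectin, a matrix and plasma protein that steadies the plasminogen activator inhibitor. Over 10 spots per array Vtn averaged 21.2 ± 0.56 on the G0s2 siRNA array and 29.7 ± 0.83 on the control siRNA array, a difference of -0.49. None of these 4 genes passed 2-fold.

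**Figure D3:**
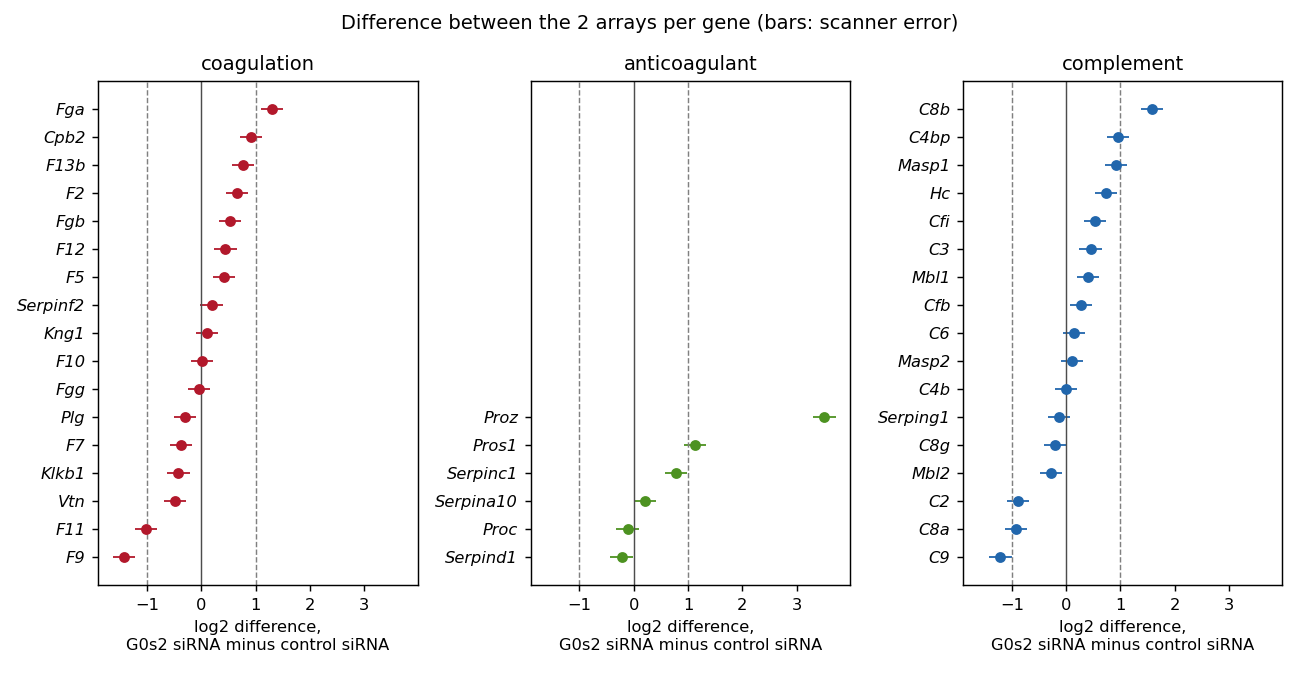
Log2 difference (G0s2 siRNA minus control siRNA) of each gene well above background on both arrays, for 17 coagulation, 6 anticoagulant and 17 complement genes. Bars are the scanner's error and dashed lines mark 2-fold. F9 and F11 lie below the lower line among coagulation genes, and C9 among complement genes.

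Among the anticoagulant genes Proz lay far from the rest by its brightest probe. Without that probe the class spans -0.22 to 1.12. Proz encodes protein Z, the cofactor that lets the inhibitor made by Serpina10 bind factor Xa. It had 9.03 on the G0s2 siRNA array and 0.793 on the control siRNA array, 11.4-fold higher, a difference of 3.51 ± 0.20. This was rank 2 from the top among 14120 genes on both arrays. The other Proz probe had 0.633 on the G0s2 siRNA array and 0.304 on the control siRNA array, a difference of 1.06 ± 0.21. Both probes passed 2-fold, but the size of the difference rests on the probe. The brighter probe is at position 3217 of a transcript named by Ensembl. The other is at position 1269 of a RefSeq transcript, nearer the start of the gene. Whether the site of the brighter probe is in the 3′ end of Proz could not be checked, so the 11.4-fold value is uncertain for this gene. Serpina10 differed by 0.21 ± 0.20, and by 0.56 on its other probe.

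Protein C and protein S switch off the cofactors of clotting together. Pros1, protein S, had 2.25 on the G0s2 siRNA array and 1.03 on the control siRNA array, 2.18-fold higher, a difference of 1.12 ± 0.20. Proc, protein C, had 19.0 and 20.5 on the same arrays, a difference of -0.11. Serpinc1, which encodes antithrombin, the main inhibitor of thrombin and factor Xa, had 91.2 on the G0s2 siRNA array and 53.1 on the control siRNA array, a difference of 0.78 ± 0.20. Serpind1, heparin cofactor II, differed by -0.22. Pros1 and Proz were the anticoagulant genes past 2-fold, and of the 6 with a fold 0 were 2-fold lower. Of all genes, 4.81% were at least 2-fold higher and 5.46% lower. The median difference over the 6 on both arrays was 0.50.

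Tfpi encodes the inhibitor of the tissue factor complex, which is known mainly from endothelial cells. Its brightest probe had 0.0266 on the G0s2 siRNA array, where it was well above background, and 0.0361 on the control siRNA array, where it was not. No fold is given for it. The other 2 Tfpi probes were not well above background on either array.

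The vitamin K-dependent proteins among these genes shared no direction. Proz and Pros1 were higher and F9 lower by the 2-fold rule, and F2, F7, F10 and Proc lay between. The median difference of the 7 was 0.01, which is the value of the F10 probe with the repeat, and 0.22 with the other F10 probe. Of the enzymes that serve them, Ggcx, the carboxylase, differed by 0.18 ± 0.21, and by -0.11 under normexp. Vkorc1, the vitamin K reductase, differed by -0.003, by 0.10 on its other probe and by -0.38 under normexp. Its paralogue Vkorc1l1 had 2.05 on the G0s2 siRNA array and 1.28 on the control siRNA array, a difference of 0.68 ± 0.20. None of these 3 passed 2-fold.

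The complement genes had a median difference of 0.15 over 17 genes. Past 2-fold were 1 upward and 1 downward, 5.88% each, near the 4.81% and 5.46% of all genes. In the lectin pathway, Masp1, a protease that starts the pathway, had 1.43 on the G0s2 siRNA array and 0.756 on the control siRNA array, a difference of 0.92 ± 0.20, with 0.57 on its other probe. Masp2, the gene of the protease that cuts C4 and C2, differed by 0.11 on its brightest probe. A second probe of the same RefSeq transcript gave -0.07. The remaining probe, on another RefSeq transcript, was dim, with 0.0578 on the G0s2 siRNA array and 0.0529 on the control siRNA array. Its difference was 0.13 ± 0.31. Which of these transcripts encodes the protease was not examined, so 0.11 is not read as the value of the protease. The mannose-binding lectins Mbl1 and Mbl2, which recognise sugars, differed by 0.40 and -0.28. None of these 4 genes passed 2-fold.

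The convertase genes build the enzyme that cuts C3. C3 itself was spotted 10 times per array, of which 8 spots per array were used. They averaged 143 ± 3.3 on the G0s2 siRNA array and 105 ± 1.3 on the control siRNA array, a difference of 0.45, and a further probe gave 0.32. C2, which encodes the protease of the classical and lectin convertase, had 14.7 on the G0s2 siRNA array and 27.3 on the control siRNA array, a difference of -0.89 ± 0.20. Cfb, its counterpart in the alternative pathway, had 45.9 on the G0s2 siRNA array and 38.1 on the control siRNA array, a difference of 0.27. C2 and Cfb are neighbours whose probes lie 6.07 kb apart on chromosome 17, and C2 was lower while Cfb was not. C4b differed by -0.001, but mouse C4b has a near-identical copy in C4a, so its value is uncertain.

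C2, Cfb, C4b and Serping1, which encodes the C1 inhibitor, are known to be induced by interferon. Of these 4 genes, 0 passed 2-fold, and the median difference was -0.07. Serping1 had 17.6 on the G0s2 siRNA array and 19.2 on the control siRNA array, a difference of -0.13, and 0.20 on its other probe. C2 was the member of this group with a difference beyond 2 scanner errors.

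The terminal components form the membrane pore, and their genes spread widely. C8b, the beta chain of C8, had 2.64 on the G0s2 siRNA array and 0.878 on the control siRNA array, 3.001-fold higher, a difference of 1.59 ± 0.20. C8a, the alpha chain, had 0.332 on the G0s2 siRNA array and 0.629 on the control siRNA array, a difference of -0.92 ± 0.21, with -0.63 on its other probe. C8g, the gamma chain, had 15.1 on the G0s2 siRNA array and 17.5 on the control siRNA array, a difference of -0.21. The neighbours C8a and C8b, with probes 11.4 kb apart on chromosome 4, thus lay on opposite sides of 0 by a gap of 2.51.

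C9, which polymerises into the pore, had 0.158 on the G0s2 siRNA array and 0.367 on the control siRNA array, 2.32-fold lower, a difference of -1.21 ± 0.21, but -0.95 under normexp. Hc, which encodes C5, had 16.4 on the G0s2 siRNA array and 9.88 on the control siRNA array, a difference of 0.73 ± 0.20. C6 had 0.918 on the G0s2 siRNA array and 0.830 on the control siRNA array, a difference of 0.15. The 6 terminal genes divided into 3 above 0 and 3 below.

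The other regulators, C4bp and Cfi, were above their control values but below 2-fold. C4bp, which encodes the C4b-binding protein that holds back the classical pathway and carries protein S in human plasma, had 12.2 on the G0s2 siRNA array and 6.31 on the control siRNA array. Its difference was 0.95 ± 0.20, just under 2-fold, and it was at least 2-fold in 5 of 10 alternative settings, with 1.05 as the highest value. Cfi, the protease that inactivates C3b and C4b, had 39.6 on the G0s2 siRNA array and 27.3 on the control siRNA array, a difference of 0.54 ± 0.20.

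Probes of the same gene bear on how far a value can be read. Of the 14 genes with several probes, 13 had more than 1 probe well above background on both arrays. In 11 of these the probes shared a sign, and the exceptions, Masp2 and Serping1, had probes on both sides of 0. The gap between probes of a gene was 2.45 in Proz and 0.73 in F5, and at most 0.35 in the others. F9, C9, F11, C8b and Pros1 rest on 1 probe and 1 spot per array.

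**Figure D4:**
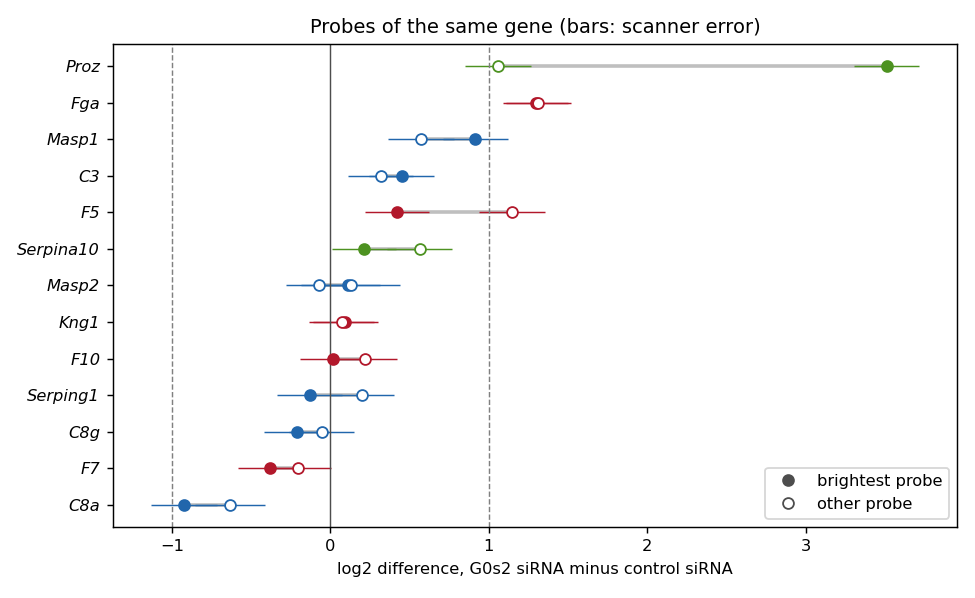
Log2 difference (G0s2 siRNA minus control siRNA) of each probe well above background on both arrays, for the 13 genes with more than 1 such probe. Filled points are the brightest probe, open points the others, bars the scanner's error and dashed lines 2-fold. The Fga probes give 1.30 and 1.31, and the Proz probes 3.51 and 1.06.

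Across the 40 genes the difference had a Spearman correlation of 0.20 with the position of the probe in the transcript, and of 0.15 across all 14120 genes. The genes share 2 arrays, so this is a description. Probe position was removed as a trend in an alternative chosen after seeing the data. F11 was then -0.99, below 2-fold, while C9 was -1.07 and F9 -1.37.

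Further genes of coagulation, such as receptors and activators, were also examined. Of 27 listed, 23 were measured, 0 passed 2-fold upward by the brightest probe, and 4 were lower by that rule, against 4.81% and 5.46% of all genes. F3, the tissue factor gene, differed by 0.67 ± 0.20 on its brightest probe and by 1.51 ± 0.22 on a dimmer one, so its call depends on the probe. Serpina5, the protein C inhibitor, had 0.2995 on the G0s2 siRNA array and 2.08 on the control siRNA array, 6.96-fold lower, a difference of -2.80 ± 0.21. Thbd, the thrombomodulin gene, had 0.491 on the G0s2 siRNA array and 1.40 on the control siRNA array, a difference of -1.51. Procr, the protein C receptor gene, had 0.624 and 1.52 on the same arrays, a difference of -1.29. Gas6, a vitamin K-dependent ligand of receptor kinases, had 6.18 on the G0s2 siRNA array and 15.7 on the control siRNA array, a difference of -1.34. Each of these 4 stayed past 2-fold under normexp. Beside these values Proc differed by -0.11 and Pros1 by 1.12. By the brightest probes the highest difference on this list was that of Plat, the tissue plasminogen activator gene, at 1.00 and just under 2-fold, but 0.56 under normexp. The transport receptor gene Lman1, which with Mcfd2 exports F5, differed by 0.98, but by -0.02 on its other probe, and Mcfd2 by -0.51.

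Of 32 further complement genes, 25 were measured, with 1 past 2-fold upward and 1 downward, against 4.81% and 5.46% of all genes. Cpn2, a subunit of the enzyme that inactivates C3a and C5a, had 0.848 on the G0s2 siRNA array and 0.316 on the control siRNA array, a difference of 1.43, with 0.76 on its other probe. Cpn1, the catalytic subunit, differed by 0.53. Cd59b, a guard against the pore, had 0.0625 on the G0s2 siRNA array and 0.196 on the control siRNA array, a difference of -1.65 ± 0.26. Its close copy Cd59a differed by 0.13. The C1 proteases C1ra and C1s1 differed by 0.54 and 0.21, and the C1q genes C1qa, C1qb and C1qc by 0.07, -0.16 and 0.005. The medians over genes on both arrays were -0.003 for the coagulation list and 0.17 for the complement list.

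**Figure D5:**
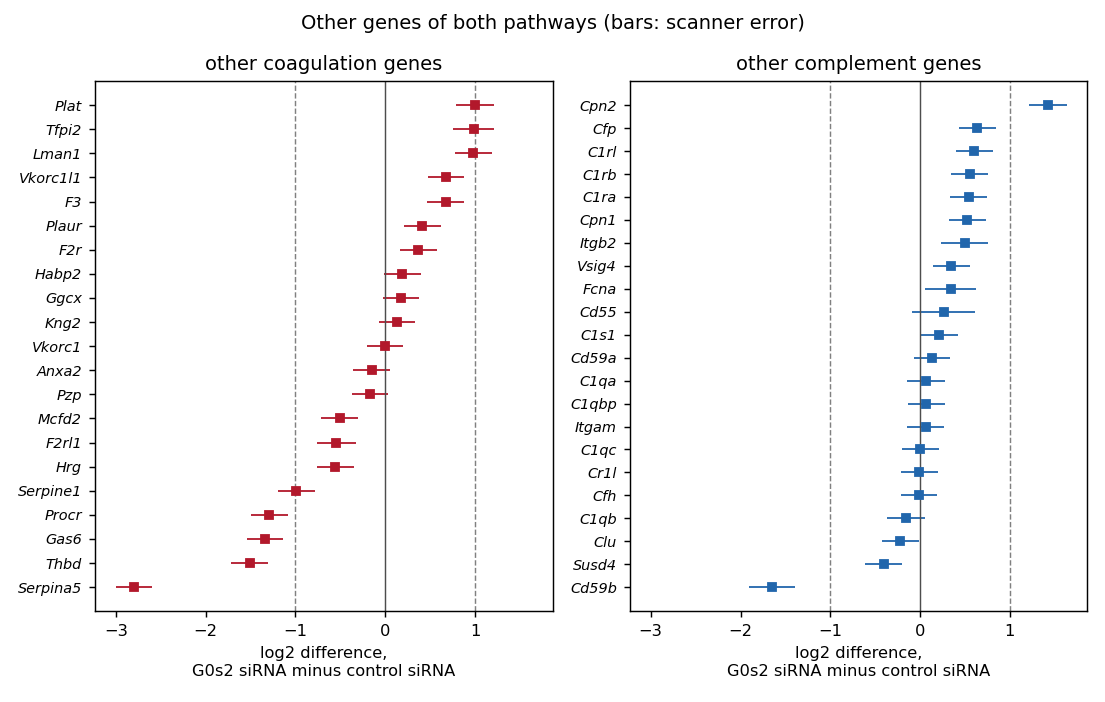
Log2 difference (G0s2 siRNA minus control siRNA) of further coagulation genes (21) and complement genes (22) well above background on both arrays, with the scanner's error as bars and 2-fold as dashed lines. Serpina5 at -2.80 and Cd59b at -1.65 are the lowest of their lists.

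Some of these genes are also made by other liver cells, and fewer cells of a type and less RNA per cell cannot be told apart in such samples. Endothelial markers were measured for 7 of 8 genes, with a summed signal of 7.55 on the G0s2 siRNA array and 9.80 on the control siRNA array. Kdr alone, with 6.15 on the G0s2 siRNA array and 8.77 on the control siRNA array, makes the sum lower. The median difference was 0.77 with 5 of 7 above 0, but -0.11 under normexp, so these markers have no settled direction to set beside Thbd and Procr. Macrophage markers, for 7 of 9 genes, summed to 7.51 on the G0s2 siRNA array and 11.4 on the control siRNA array, where Mpeg1 alone had 3.18 and 7.23. Their median was 0.14, but -0.11 under normexp. Cholangiocyte markers, for 5 of 6, summed to 4.28 on the G0s2 siRNA array and 7.66 on the control siRNA array, and all 5 were below 0. Stellate markers were measured for 2 of 6 genes, with sums of 1.996 on the G0s2 siRNA array and 0.965 on the control siRNA array. Platelet markers were measured for 2 of 5, and the defining genes Pf4 and Ppbp were not well above background on either array. The part of these cells in the differences was not tested.

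Promoter windows of these genes were examined for short motifs. RefSeq start sites of GRCm38.p6 were available for 31 of the 41 genes, as 33 windows from 250 bases before to 50 bases after the start. They were searched on both strands for 4 motifs. These were the HNF1 motif (GTTAAT, any base, ATT), CAAAGTCCA for HNF4, TTGCNNAA for C/EBP factors, and the interferon-stimulated response element (GAAA, any 2 bases, GAAA). No member window held more than 1 of them, and 18 of the 31 genes had none. The HNF1 motif was in 3 of 33 windows, 9.09%, and in 0.399% of all 32851 windows. TTGCNNAA was in 9, 27.3%, against 10.8% of all. CAAAGTCCA was in 0, against 0.475%, and the interferon element in 1, that of Vtn, against 3.44%.

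The 3 genes with the HNF1 motif differed by 0.95 for C4bp, 0.77 for F13b and 0.73 for Hc. Such values are not particular to the motif, since Serpinc1, whose window lacks it, differed by 0.78. The 40 genes spanned -1.43 to 3.51. Whether the motif goes with the difference was not tested. TTGCNNAA was in the windows of F9, C9 and F11, which were at least 2-fold lower, and of Fga, which was at least 2-fold higher, so genes with this match differed in both directions. The other 5 were Serpinc1, Fgb, Klkb1, Cpb2 and C3. These stretches are shown with the match in capitals, on the strand of the gene. A match of letters is not a bound site.
C4bp, HNF1 motif, GRCm38.p6 chr1:130661643-130661712, minus strand: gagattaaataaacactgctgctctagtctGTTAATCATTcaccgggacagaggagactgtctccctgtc
F13b, HNF1 motif, GRCm38.p6 chr1:139501622-139501691, plus strand: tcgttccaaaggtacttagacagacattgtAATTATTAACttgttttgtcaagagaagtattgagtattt
Hc, HNF1 motif, GRCm38.p6 chr2:35061451-35061520, minus strand: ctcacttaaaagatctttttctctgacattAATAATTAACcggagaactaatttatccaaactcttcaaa
Fga, TTGCNNAA, GRCm38.p6 chr3:83025988-83026055, plus strand: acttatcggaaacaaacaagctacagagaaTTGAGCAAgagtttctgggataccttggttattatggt
F9, TTGCNNAA, GRCm38.p6 chrX:59999410-59999477, plus strand: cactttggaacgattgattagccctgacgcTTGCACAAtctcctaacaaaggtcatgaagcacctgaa
C9, TTGCNNAA, GRCm38.p6 chr15:6445184-6445251, plus strand: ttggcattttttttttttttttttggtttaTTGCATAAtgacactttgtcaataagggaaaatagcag
F11, TTGCNNAA, GRCm38.p6 chr8:45262011-45262078, minus strand: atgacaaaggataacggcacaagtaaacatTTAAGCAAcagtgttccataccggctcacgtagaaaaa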

How the data were processed

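Total RNA was labelled with Cy3 (0.5 ug per sample, per the labels' protocols) and read on 2 arrays of 1 slide, with the same scan time, so a difference in place on that slide cannot be separated from the siRNA. The deposited intensity values were made with Agilent Feature Extraction 10.7.1.1, per the file headers. The authors' series table holds intensity values with a median of 33.1 in both columns. Its scale was taken as linear from the match to the scanner values, how it was made is not stated in the labels or headers, and it served as an alternative.

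Spots flagged as outliers were left out, spots of a probe were averaged, and log2 signals were centred on the 75th percentile of 39424 probes. Each gene took its brightest probe among those well above background on at least 1 array. Members were matched by the array's gene name. The other genes were named through RefSeq tables of GRCm38.p6 (26408 probes by accession, 3854 by symbol, 734 by synonym). Probe coordinates are on mm9, per the file headers. A dim array's value was raised to the lowest signal well above background, and no fold was given where that removed it. The rule for calls was 2-fold. The error is the scanner's, about 0.20. Members, lists and motifs were chosen with earlier results of these data known. All members are named. Of the further genes, the rule took those past 2-fold and the largest below it, and others are named to describe a group. Precision is limited by 1 array per group. Python 3.11.15, pandas 2.3.3, statsmodels 0.14.6, R 4.3.3 and limma 3.58.1 were used. Other background corrections, centrings, filters and probe rules were tried as alternatives. The steps were tested on simulated arrays.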

Additional observations from a re-analysis of the deposited data

How the results depend on the processing

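No paired analysis was possible because each group has 1 array. Differences were also computed with normexp (offset 50), with the median of detected probes as the centre, with quantile and loess normalization, with spike-in centring, with other filters on dim probes, with the mean over probes, with the next brightest probe, with the authors' series values, and, chosen after seeing the data, with the trend with probe position removed (lowess span 0.3). Fga, C8b, Pros1, Proz and F9 kept their direction and their side of 2-fold in the 10 settings other than spike-in centring. C4bp passed 2-fold in 5 of those 10. C8b, Pros1, F9 and C4bp have 1 probe each, so the filters on dim probes and the probe rules could not change their values. For these genes only the other settings bear on the result. Genes at least 2-fold lower numbered 1 under normexp, where C9 and F11 were below 2-fold. Spike-in centring adds 1.51 to every difference and gave 36 genes at least 2-fold higher and 0 lower. The 36 are 4 that kept the call, 31 that gained it, and Tfpi, for which no fold is given above. The share of all genes past 2-fold in this setting is not given, so the 36 cannot be read as an excess. The same centring turned F9 to 0.0789, F11 to 0.48 and C9 to 0.29. Class medians were then 1.60 for coagulation, 2.002 for anticoagulants and 1.65 for complement, against 1.45 for all genes. The spike-in probes themselves differed by -0.04 to -0.98, so that scale is unsettled. The shift follows from the centring itself. With a rule of 1.5-fold 11 genes were higher and 5 lower, with 3-fold 2 and 0, and with more than 2 scanner errors 16 and 7. Of the differences recomputed over genes and settings, 384 moved by less than the scanner's error, 53 by more, and 3 turned sign after being past 2-fold. The 384 include values that could not move: the filters on dim probes returned the main values, and the probe rules cannot change a gene with 1 probe. Spike-in centring moved every gene. These counts therefore do not measure how stable the differences are. Chosen after seeing the data as well, the other F10 and Proz probes and normexp for the marker lists are given beside their results. Signals near background, as for Tfpi, limit what can be said of such genes.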
